A study of Mus musculus with 6 samples.

Results

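Orphan and numbered G protein receptors are the genes whose symbol is Gpr followed by a number, most of them named before a ligand was known. Dorsal root ganglia hold the cell bodies of the sensory neurons that run to skin, muscle and organs. In the deposited table of these ganglia, 78 of the 57180 genes matched that rule. The transcriptome had been measured by RNA sequencing in wild-type (WT) mice, in ganglia between thoracic level 8 and lumbar level 2, taken 24 h after kidney surgery. In the 3 I/R mice (renal ischemia-reperfusion) the left renal pedicle had been clamped for 28 min and released, and the right kidney removed. The 3 sham mice had the same operation without the clamp, though the labels do not spell out whether that included the nephrectomy. All 6 mice had been anesthetized with Zoletil at 55 mg/kg, and each gave 1 library. The sources used here give no age, sex or strain, nor how many ganglia were taken per mouse, and differences between mice also hold any technical spread. The comparison asks how sensory ganglia of the region that supplies the kidney differ after renal I/R.

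G protein-coupled receptors cross the membrane several times and, once a ligand binds, act on heterotrimeric G proteins, which then change the production of cyclic AMP, calcium release or the activity of ion channels. For many numbered receptors no ligand is agreed, and some signal without one. In sensory ganglia such receptors are known from neurons, from the satellite glia that wrap them, from Schwann cells and from resident macrophages. Not every gene with such a symbol encodes a receptor. In the deposited protein domain column, 59 of the 78 genes carried the rhodopsin-family receptor domain, 3 the class C receptor domain and 1 the secretin-family domain. Another 8 had no domain listed and 7 carried some other domain. Those 7 include Gpr15lg, annotated as the ligand of the receptor Gpr15, Gpr89, the Golgi pH regulator, and Gpr155, a lysosomal cholesterol sensor. Gpr137b-ps is annotated as a pseudogene of Gpr137b.

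Library totals ran from 20234079 to 22010227 expected counts in I/R and from 19092650 to 20390927 in sham. Defining markers of sensory neurons were abundant in all libraries, with 8 genes summing to 12000 to 13600 CPM (counts scaled to library size) in I/R and 11900 to 13000 CPM in sham, and none of them was called as changed. Markers of other tissues differed between libraries. Skeletal muscle markers summed to 6.08, 14.3 and 9.47 CPM in I/R 1 to 3, against 479, 16.9 and 246 CPM in sham 1 to 3. Of 8 fibroblast and meningeal markers 7 fell in I/R, with sums of 548 to 666 CPM in I/R and 996 to 1210 CPM in sham, and all 5 red cell markers fell. The part of these differences in the results for Gpr genes was not tested. The count of called members is also given against sham 2 alone, the sham library low in muscle transcripts. Sham 2 keeps the other differences. It had the highest fibroblast and meningeal sum, 1210 CPM, and its red cell markers summed to 195 CPM, against 52.8 to 86.7 CPM in I/R.

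The ganglia held transcripts of most of the family, and 1 member stood far apart between the groups. Of the 78 genes, 49 passed the filter on low counts and were tested, and 29 did not. Gpr151 rose in I/R ganglia, and it was the only numbered Gpr gene called, that is, with an adjusted p under 0.05 in the quasi-likelihood test of edgeR. The count of members called lower was 0 in edgeR and also in DESeq2 and limma-voom, while edgeR gave 2 lower members an unadjusted p under 0.05. The called share of the members was therefore 2.04%, beside 1.15% of all 16346 genes tested (0.722% counting only genes that were higher). The median log2 fold change, I/R over sham, was 0.001 over the 49 members and 0 over all genes tested, and 25 members lay above 0 and 24 below. Against sham 2 alone Gpr151 was again the only member called, in a fit whose spread comes from the I/R libraries alone and assumes that sham 2 varies like them.

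Levels of different genes were compared as CPM per kilobase of the deposited gene length. On this scale Gpr37l1, a receptor of satellite glia and astrocytes for which prosaposin has been proposed as a ligand, had a mean of 38.0 in I/R and 46.5 in sham. Gpr137, a lysosomal membrane protein, averaged 39.4 in I/R and 40.2 in sham on the same scale. Next came Gpr161, a receptor of the primary cilium that restrains Hedgehog signaling, at 29.9 in I/R and 30.0 in sham. Gpr158, a class C receptor that binds the RGS7 complex at neuronal membranes, stood at 29.0 in I/R and 23.2 in sham. These 4 were the most abundant members in both groups, although the order of the first and second differed between the groups. Gpr153, Gpr108, Gpr107, Gpr45, Gpr162, Gpr137b, Gpr155 and Gpr180 completed the 12 highest, with means over all 6 libraries between 10.8 and 21.6 CPM per kilobase. At the lower end of the tested genes, Gpr17, known from oligodendrocyte precursors, averaged 0.211 CPM per kilobase and Gpr174 averaged 0.112.

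**Figure D1:**
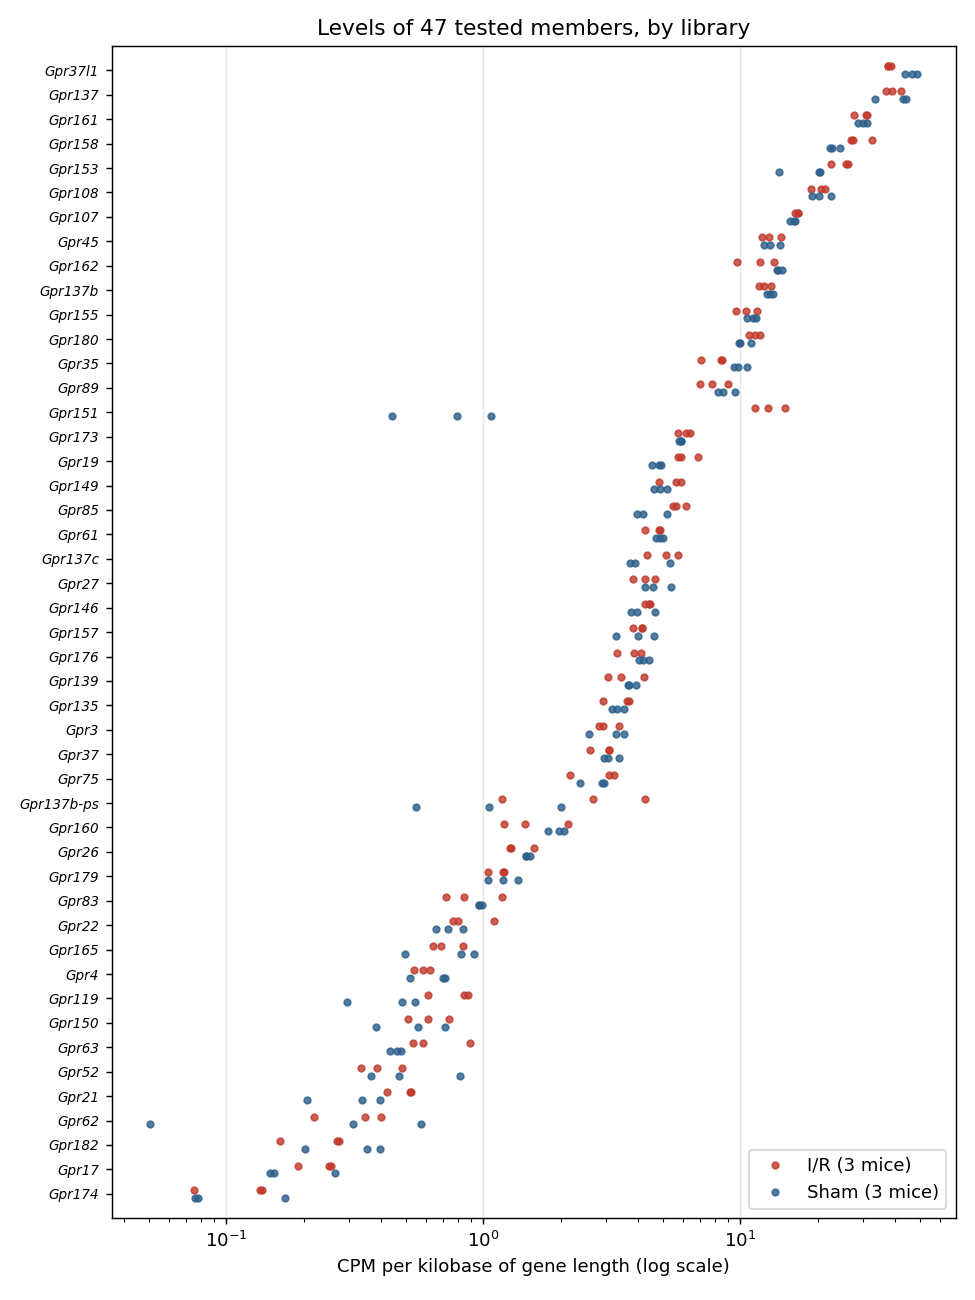
Level of 47 tested numbered Gpr genes in each library, as CPM per kilobase of gene length on a log axis, with the 3 I/R libraries above the 3 sham libraries for each gene. Genes are ordered by the mean of the 6 libraries. The I/R and sham points lie close together for most genes, while Gpr151 lies near 13.1 in I/R and near 0.769 in sham.

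Gpr151 is a rhodopsin-family orphan receptor of habenular and sensory neurons, and it is known to be induced in sensory neurons whose peripheral axons are damaged. Its expected counts were 536, 419 and 499 in I/R 1 to 3, against 16, 28 and 37 in sham 1 to 3. Scaled to library size these were 26.5, 20.3 and 22.8 CPM in I/R, against 0.786, 1.40 and 1.90 CPM in sham. Every I/R library was far above every sham library. The mean was 23.2 ± 3.12 CPM in I/R and 1.36 ± 0.559 CPM in sham (SD, n = 3 each), a 17.0-fold difference (log2 fold change 4.09 ± 0.24 SE, 95% interval 3.55 to 4.63, edgeR adjusted p = 2.65e-05). By level per kilobase Gpr151 ranked 9 among the 49 tested members in I/R, and 37 in sham. It took 1.89% of the summed CPM of all 78 genes in I/R and 0.117% in sham. Its log2 fold change was the fifth largest of the 110 genes that were called higher and averaged 1 CPM or more. In bulk ganglia a larger number of cells that express a gene and more RNA per cell cannot be told apart, here or for any gene below.

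Without Gpr151 the 77 other genes summed to 1150, 1220 and 1260 CPM in I/R 1 to 3, against 1200, 1200 and 1120 CPM in sham 1 to 3. These sums overlapped between the groups. Of the 48 tested members that were not called, 40 had a 95% interval lying inside a 2-fold difference either way, and 30 had one inside 1.5-fold. The 8 whose interval reached past 2-fold were Gpr119, Gpr137b-ps, Gpr174, Gpr182, Gpr21, Gpr52, Gpr62 and Gpr63, each under 5 CPM in every library. For those 8 the interval still holds differences of 2-fold at this depth.

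**Figure D2:**
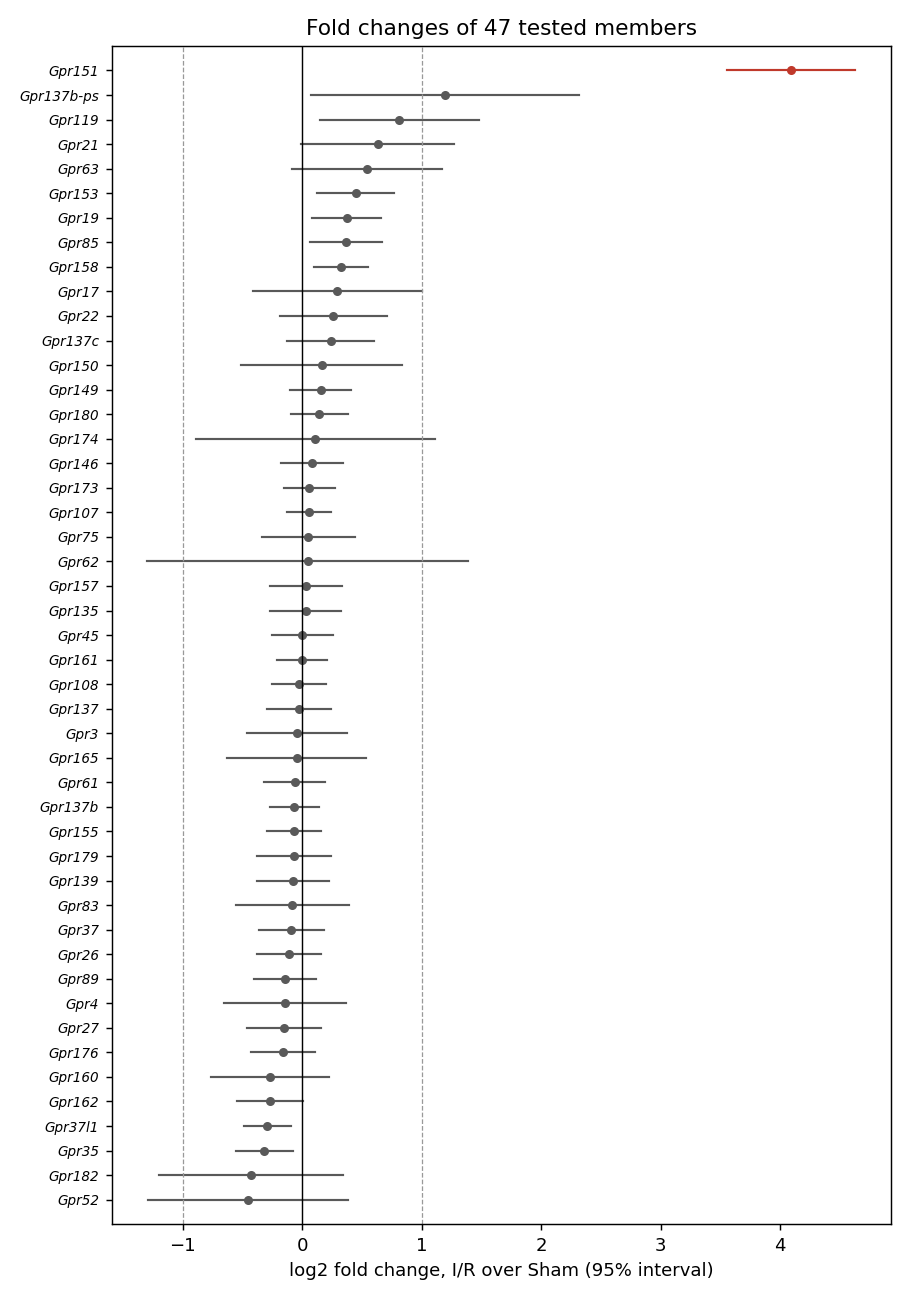
Log2 fold change, I/R over sham, of 47 tested numbered Gpr genes (point) with its 95% interval (line), and dashed lines at a 2-fold difference either way. Gpr151, in red, was the only one called, with an interval of 3.55 to 4.63, and the other 46 points lie between -0.46 and 1.19.

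An unadjusted p under 0.05 was reached by 7 members that were higher and 2 that were lower in I/R, which is 14.3% and 4.08% of the 49. Both directions together made 18.4% of the 49 members, beside 10.5% of all genes tested. The share of all genes by direction was not computed at this threshold. Every I/R library lay above every sham library for 9 members (18.4%), beside 9.24% of all genes, and below for 3 members (6.12%), beside 7.82%. Apart from Gpr151, the 8 members at this threshold had adjusted p between 0.219 and 0.443, so none of them passed the test. Their values are given as measurements.

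In the list named class A orphan receptors of neurons, 24 genes were listed, 19 were tested and Gpr151 alone was called. Of the tested genes 12 lay above 0 and 7 below, with a median log2 fold change of 0.05. The list name is loose, since the list also holds Gpr62, known from myelinating oligodendrocytes, and Gpr139, which responds to aromatic amino acids. Gpr153, an orphan receptor with no agreed ligand, stood at 85.4, 99.2 and 97.9 CPM in I/R 1 to 3, against 76.4, 77.5 and 53.4 CPM in sham 1 to 3. The groups did not overlap, and sham 3 was well below the other two sham libraries. Its log2 fold change was 0.45 ± 0.14 SE (adjusted p = 0.259) and was 0.29 without sham 3. Gpr19, another orphan receptor, stood at 11.3, 9.73 and 9.44 CPM in I/R, against 7.46, 8.10 and 7.97 CPM in sham. Its groups also did not overlap, with a log2 fold change of 0.37 ± 0.13 SE (adjusted p = 0.309). Gpr63 and Gpr21, both at most 2.10 CPM in any library, had log2 fold changes of 0.54 and 0.63 (adjusted p = 0.554 and 0.479) with every I/R library above every sham library. These values were 0.28 for Gpr63 without I/R 3 and 0.40 for Gpr21 without sham 2. Gpr162 averaged 33.4 ± 5.30 CPM in I/R and 40.3 ± 0.942 CPM in sham, with every I/R library below every sham library (log2 fold change -0.27 ± 0.12 SE, adjusted p = 0.479). Without I/R 3 its log2 fold change was -0.155. Gpr52, an orphan receptor known from the striatum, had the lowest log2 fold change of the family at -0.46, at no more than 1.33 CPM in any library. Its value was -0.07 without sham 1 and 0.10 against sham 2 alone.

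The groups overlapped for other receptors of the neuronal list, and none of those passed the test. Gpr149 averaged 23.0 ± 2.25 CPM in I/R and 20.6 ± 1.29 CPM in sham (log2 fold change 0.16, adjusted p = 0.695). Gpr139, which responds to aromatic amino acids, averaged 17.3 ± 2.89 CPM in I/R and 18.2 ± 0.766 CPM in sham. Gpr45 averaged 20.5 CPM in I/R and 20.4 CPM in sham, and its log2 fold change of 0.0005 had a 95% interval of -0.25 to 0.25. Gpr26, Gpr61, Gpr135 and Gpr176 had log2 fold changes between -0.16 and 0.03.

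Of the 3 class C orphan receptors none was called. Gpr158 had 193, 196 and 234 CPM in I/R 1 to 3, against 175, 161 and 163 CPM in sham 1 to 3. Each I/R library exceeded each sham library, and the log2 fold change was 0.32 ± 0.10 SE (adjusted p = 0.241). Gpr179, known from bipolar cells of the retina, had a log2 fold change of -0.07. RGS7 and the beta subunit Gnb5 are the partners of Gpr158 in neurons, and neither gene was called.

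**Figure D3:**
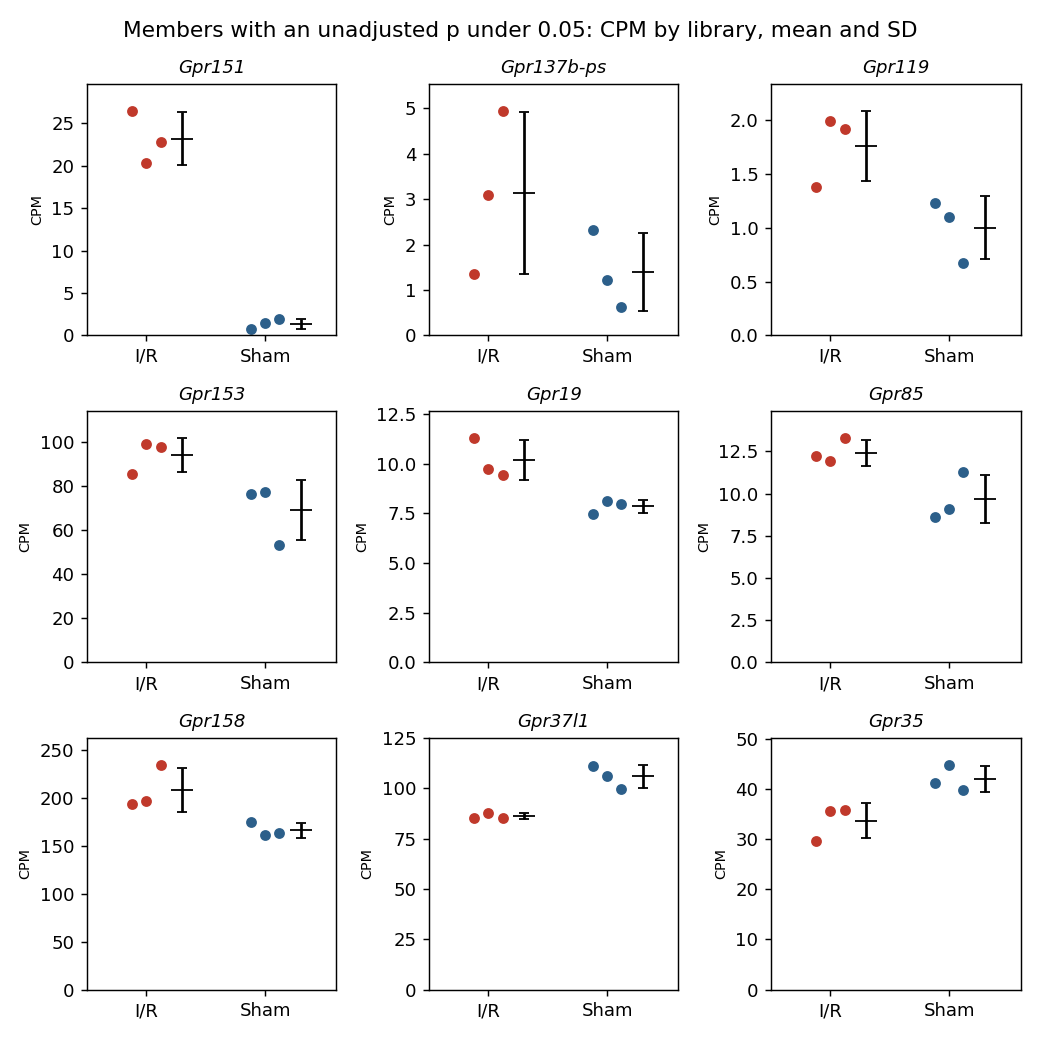
CPM in each I/R and sham library (points) with the group mean and SD (black) for the 9 members with an unadjusted p under 0.05, each panel starting at 0. Gpr151 shows 20.3 to 26.5 CPM in I/R against 0.786 to 1.90 CPM in sham, while the other panels show smaller separations that did not pass the adjusted threshold, and Gpr137b-ps shows overlapping groups.

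None of the 3 glial receptors passed the test, and 2 were below 0 and 1 above. Gpr37l1 stood at 85.2, 87.9 and 85.4 CPM in I/R 1 to 3, against 111, 106 and 99.6 CPM in sham 1 to 3. All I/R values lay below all sham values, with a log2 fold change of -0.29 ± 0.09 SE (95% interval -0.49 to -0.10, adjusted p = 0.219). Satellite glia markers summed to 2840, 2560 and 2040 CPM in I/R, against 2830, 2700 and 3070 CPM in sham. One of those 6 markers was called, Fabp7, a fatty acid binding protein, which averaged 77.5 ± 9.91 CPM in I/R and 154 ± 36.5 CPM in sham (edgeR adjusted p = 0.0187). For Gpr17 the log2 fold change was 0.29 (adjusted p = 0.803). Gpr37, the related receptor of myelin-forming cells, averaged 14.6 ± 1.41 CPM in I/R and 15.6 ± 1.19 CPM in sham (log2 fold change -0.09, adjusted p = 0.838). Myelinating Schwann cell markers summed to 5430 to 6110 CPM in I/R and 6420 to 6700 CPM in sham, with none of 6 called. Psap, which encodes prosaposin, averaged 1950 CPM in I/R and 1910 CPM in sham (adjusted p = 0.912). Whether the glial marker levels bear on Gpr37l1 was not tested.

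The SREB receptors, a set of highly conserved brain orphans, were all tested and none was called. Gpr85 stood at 12.2, 11.9 and 13.3 CPM in I/R 1 to 3, against 8.59, 9.10 and 11.3 CPM in sham 1 to 3, with no overlap between the groups (log2 fold change 0.37 ± 0.14 SE, adjusted p = 0.363). Gpr27 and Gpr173 had log2 fold changes of -0.15 and 0.06. Of the constitutively active receptors that raise cyclic AMP without an added ligand, only Gpr3 passed the filter, at 3.40 ± 0.341 CPM in I/R and 3.50 ± 0.558 CPM in sham (log2 fold change -0.04, adjusted p = 0.956). Gpr6 and Gpr12 had at most 3 counts in any library.

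Proton-sensing receptors, which respond to acid outside the cell, were low and did not pass the test. Gpr4, known from endothelium, averaged 1.67 ± 0.120 CPM in I/R and 1.85 ± 0.313 CPM in sham (adjusted p = 0.866). Gpr65, a receptor of leukocytes, had 10, 10 and 9 counts in I/R 1 to 3, against 3, 8 and 23 in sham 1 to 3, and was not tested. Gpr132 had 10 counts over the I/R libraries and 19 over the sham libraries and was not tested either.

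Of the 12 lipid and metabolite receptors, 3 were tested. Gpr35, a receptor that kynurenic acid activates and that is known from nociceptors, stood at 29.7, 35.6 and 35.8 CPM in I/R 1 to 3, against 41.2, 44.8 and 39.9 CPM in sham 1 to 3. Each I/R library was below each sham library, and the log2 fold change was -0.32 ± 0.11 SE (95% interval -0.56 to -0.08, adjusted p = 0.293). Gpr119, a receptor for fatty acid amides known from gut endocrine and islet cells, had 28, 41 and 42 counts in I/R, against 25, 22 and 13 in sham. On the CPM scale its groups did not overlap, with means of 1.76 ± 0.329 CPM in I/R and 0.999 ± 0.293 CPM in sham (log2 fold change 0.81 ± 0.30 SE, adjusted p = 0.351). Gpr174, a lysophosphatidylserine receptor of lymphocytes, averaged 0.538 CPM in I/R and 0.498 CPM in sham.

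Receptors of myeloid cells were scarce. Gpr183, the oxysterol receptor that guides immune cells, had 3, 4 and 6 counts in I/R 1 to 3, against 10, 14 and 7 in sham 1 to 3. These 13 and 31 counts gave a ratio of 0.399 per scaled library, I/R over sham, with a 95% interval of 0.192 to 0.786 that covers counting error only. Gpr183 did not pass the filter, and in edgeR's fit without a filter it had a log2 fold change of -1.31 ± 0.58 SE (adjusted p = 0.486). Gpr34, a lysophosphatidylserine receptor of microglia and macrophages, had 31 counts over the I/R libraries and 21 over the sham libraries. Gpr84, which medium-chain fatty acids activate, had 2 counts in each group. The macrophage markers summed to 57.8 to 59.7 CPM in I/R and 47.9 to 50.0 CPM in sham, with none of 9 called. Cyp7b1, which acts with Ch25h to make the oxysterol ligand of Gpr183, averaged 3.80 ± 0.374 CPM in I/R and 4.90 ± 0.316 CPM in sham (adjusted p = 0.461), and Ch25h averaged 1.15 CPM in I/R and 0.868 CPM in sham (adjusted p = 0.678).

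Receptors listed for leukocytes or other tissues showed no called difference. Of the 8 genes listed for leukocytes only Gpr160 was tested, at 3.55 ± 1.07 CPM in I/R and 4.29 ± 0.329 CPM in sham. The listing does not show which cells of the ganglia express Gpr160. Gpr182, an endothelial receptor, averaged 0.930 ± 0.253 CPM in I/R and 1.25 ± 0.403 CPM in sham (log2 fold change -0.43, adjusted p = 0.721, and -0.22 without I/R 3), while endothelial markers summed to 133 to 134 CPM in I/R and 123 to 139 CPM in sham. Gpr161 had 50.8, 56.9 and 56.2 CPM in I/R, against 56.9, 54.8 and 52.6 CPM in sham, with a log2 fold change of -0.002 and a 95% interval of -0.21 to 0.21. Gpr146 and Gpr157 had log2 fold changes of 0.08 and 0.03. Gpr20 had 26 counts over the I/R libraries and 11 over the sham libraries. Its I/R to sham ratio was 2.25 (counting interval 1.07 to 5.05), with an adjusted p of 0.707 in edgeR's fit without a filter.

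The 9 genes listed as numbered membrane proteins outside the receptor family, 1 of them the pseudogene Gpr137b-ps, were all tested, and none was called. They summed to 385 to 417 CPM in I/R and 390 to 420 CPM in sham. Gpr107 and Gpr108, paralogs of the Golgi and its traffic, had log2 fold changes of 0.06 and -0.03, Gpr137 had -0.03, Gpr137b -0.07, Gpr155 -0.07 and Gpr180 0.14. Every I/R library lay above every sham library for Gpr107, at 101 to 103 CPM in I/R and 95.4 to 99.8 CPM in sham, a separation of 0.06 ± 0.08 SE that did not pass the test (adjusted p = 0.862). The pseudogene Gpr137b-ps had 1.36, 3.10 and 4.95 CPM in I/R 1 to 3, against 2.32, 1.21 and 0.634 CPM in sham 1 to 3 (log2 fold change 1.19 ± 0.50 SE, adjusted p = 0.443), and its groups overlapped. Leaving out 1 library gave 0.70 (without I/R 3) to 1.79 (without sham 1). Because its sequence resembles that of Gpr137b, the split of reads between them is uncertain.

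The 29 untested members had few counts, with at most 23 in any library (Gpr65 in sham 3). A count of 3, the most that a count of 0 allows, was 0.137 to 0.154 CPM depending on the library, and this floor covers counting error only. Gpr31a, Gpr33, Gpr82 and Gpr142 had no count in any library. Another 14 had under 10 counts over the 6 libraries, among them Gpr15, Gpr50, Gpr101, Gpr143 and Gpr171, and the remaining 11 had 10 or more counts in all. Gpr15lg had 6 counts in I/R and none in sham, at or under the floor in 5 of the 6 libraries.

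Genes for proteins that carry the signal of these receptors were listed together with ligand genes, and none was called. The 6 lists held G protein subunits, RGS proteins, receptor kinases and arrestins, cyclases and phospholipases, and ligand genes. In edgeR 0 of their 74 tested genes were called, beside 1.15% of all genes. At that share 74 genes would hold few calls or none, so this 0 says little about them. An unadjusted p under 0.05 was reached by 6 of them (8.11%), beside 10.5% of all genes. Of 12 tested G protein alpha subunits none had an unadjusted p under 0.05, with Gnai3 at a log2 fold change of 0.15 and Gna14 at -0.13. Among 15 tested beta and gamma subunits Gng11 had -0.56 (adjusted p = 0.470) and Gng5 -0.51. RGS proteins speed the shutting off of G proteins. Their list had 18 tested genes, among them Rgs7bp and Rgs9bp, which encode binding proteins of RGS proteins. Within this list Rgs8 averaged 73.1 ± 5.42 CPM in I/R and 93.6 ± 3.16 CPM in sham (log2 fold change -0.36 ± 0.09 SE, adjusted p = 0.144). Rgs20 averaged 3.17 ± 0.683 CPM in I/R and 1.81 ± 0.0511 CPM in sham (0.81 ± 0.22 SE, adjusted p = 0.160). Both had no overlap between the groups. Among 8 receptor kinases and arrestins, Arrb1, which encodes beta-arrestin, showed a log2 difference of 0.25 (adjusted p = 0.374) and the kinase gene Grk6 had 0.25 (adjusted p = 0.437). Of 13 cyclases and phospholipases none had an unadjusted p under 0.05, with Plcb4 at 0.21 and Plcb2 at -0.55.

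Receptors under other names gave 1 called gene. Adgrd1, an adhesion receptor formerly numbered as a Gpr gene, rose to 20.2, 25.0 and 25.1 CPM in I/R 1 to 3, against 11.4, 11.4 and 7.30 CPM in sham 1 to 3 (log2 fold change 1.22 ± 0.18 SE, edgeR adjusted p = 0.00936). It was 1 of 19 tested adhesion receptors, while 1.15% of all genes tested were called, so 1 call says little about the list. The call was lost without I/R 2 (log2 fold change 1.15, adjusted p = 0.0656), without I/R 3 (1.17, adjusted p = 0.0638) and against sham 2 alone (1.02, adjusted p = 0.148). A further list, named other orphan receptors though some of its genes have a known ligand, had 7 tested genes. In it Lgr6 showed a log2 difference of 0.92 (adjusted p = 0.253) and Lgr4, an R-spondin receptor, 0.26 (adjusted p = 0.405).

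**Figure D4:**
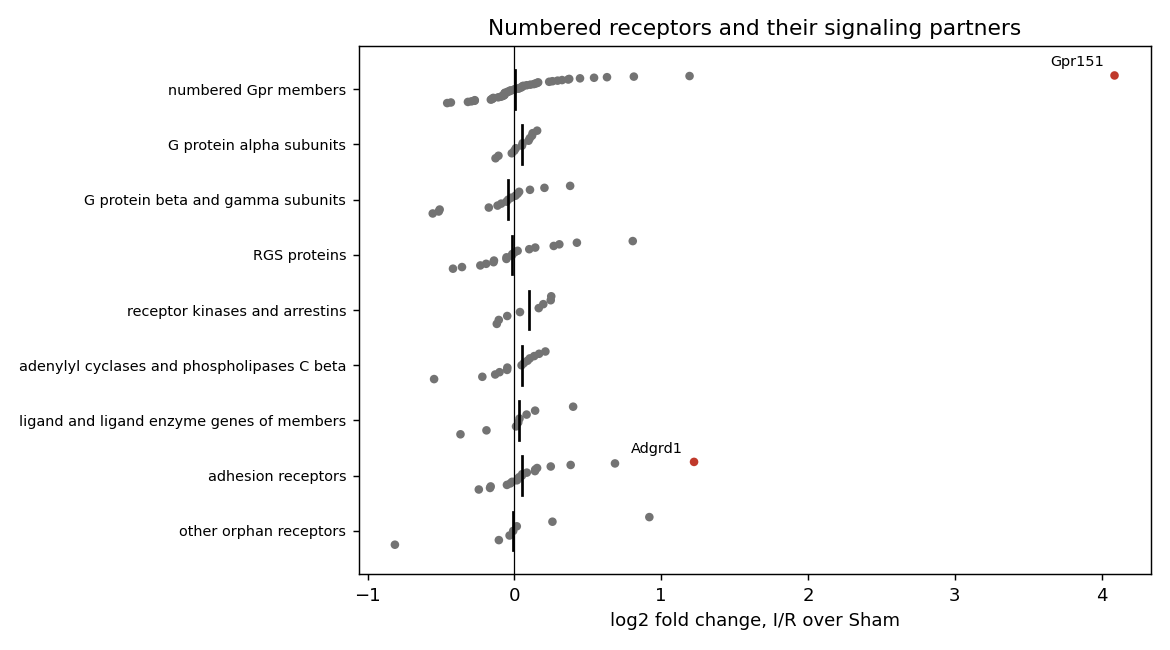
Log2 fold change, I/R over sham, of the tested numbered Gpr genes and of the tested genes of 8 lists of signaling partners and other receptors, with each list's median as a black bar and called genes in red. The only called genes are Gpr151 at 4.09 and Adgrd1 at 1.22, and the list medians lie between -0.04 and 0.10.

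In GENCODE M21, an annotation of GRCm38 and so of another build than the GRCm39 named by the submitters, 77 of the 78 genes were found by ID and 24 of them shared exonic bases with another gene, 21 on the opposite strand. Of the 9 members with an unadjusted p under 0.05, Gpr158 and Gpr19 overlapped antisense transcripts over 7.36% and 9.25% of their exonic bases. Gpr21 lies inside Rabgap1 on the same strand. The sources used here do not give the strand setting of the counting, so reads of such pairs may not be told apart, whereas no exonic overlap was listed for Gpr151.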

How the data were processed

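The authors deposited 1 table of expected counts per gene and library, not scaled to library size. TRIzol extraction and a stranded mRNA preparation are recorded per the labels' protocols. Tools named in the submitters' processing notes, without version or role, are HISAT2, StringTie and fastp, and the build is GRCm39. The counting program and its strand setting are not given there. Between 10.7% and 11.5% of values in a library were not whole, so expected counts were rounded for testing. The authors' group means were not used. Gene length, deposited in bases, served only for levels per kilobase.

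Genes were tested with edgeR 4.0.16 (quasi-likelihood, TMM, package filter on low counts, Benjamini-Hochberg adjustment over all 16346 genes) in R 4.3.3. SE came from the fold change and F statistic. CPM used TMM-scaled library sizes. The test was checked on simulated data. Libraries of 1 group differed beyond counting noise (chi-square over its degrees of freedom 4.26 to 30.5), so each counted as 1 sample. Alternatives used DESeq2 1.42.0, limma 3.58.1 (voom), other scalings and filters, a replicate block and omitted libraries.

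The members and lists were chosen with earlier results of these data known. Named were members called, with an unadjusted p under 0.05, among the 12 highest levels or the 5 largest or smallest fold changes, 15 preset members, and per partner list its called genes or else 2 of smallest p. Other named genes were chosen after their values were seen. Sequences are not shown, and 3 members are counted but not reported here by name.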

Additional observations from a re-analysis of the deposited data

How the results depend on the processing

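Gpr151 was the only member called under all 14 alternatives, with 1 member higher and 0 lower each time. Its log2 fold change ran from 3.81 to 4.40, with adjusted p from 9.48e-59 in DESeq2 to 0.012 with the replicate block. Over all genes 188 were called, and the block called 63, of which 62 were among the 188, while DESeq2 called 312, the fit without a filter 494 and the fit against sham 2 alone 32. Leaving out 1 library gave 87 to 181. The members' median log2 fold change stayed between -0.04 and 0.035. Same-numbered deviations correlated at -0.106, 0.135 and -0.123, and those of I/R 1 and sham 3 at 0.277. These values gave no sign that replicate numbers pair the libraries, but so few libraries cannot exclude a pairing. Of 41 named genes, 34 kept their direction under every alternative that gave them a value (Gpr52 and Plcb2 had none at a CPM of at least 1 in 3 libraries), and none that had not passed the test was called. Adgrd1 lost its call with the block (log2 fold change 1.24, adjusted p = 0.107), without I/R 2 or I/R 3 (1.15 and 1.17) and against sham 2 alone (1.02). Gpr45, at 0.0005, turned to -0.006 with RLE scaling and in DESeq2, -0.009 with upper-quartile scaling, -0.001 in limma-voom, -0.003 without a filter, -0.016 with a CPM of at least 1 in 3 libraries and 0 with the replicate block. Against sham 2 alone Gpr52 was 0.102 and Gpr182 0.19. Leaving out 1 library gave ranges of -0.144 to 0.043 for Gpr137, -0.051 to 0.048 for Gpr161, -0.087 to 0.037 for Gpr108, -0.084 to 0.058 for Gpr45 and -0.166 to 0.05 for Gpr3. The cause was not tested.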

Other observations

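Some low members varied more between mice of 1 group than between the groups. Gpr62, a receptor known from myelinating oligodendrocytes, had 16, 9 and 15 counts in I/R 1 to 3, against 23, 2 and 12 in sham 1 to 3. Mobp, an oligodendrocyte gene, had 1.68, 3.53 and 2.83 CPM in I/R 1 to 3, against 18.7, 3.20 and 12.7 CPM in sham 1 to 3. Sham 2 was the lowest sham library for both genes. Of the other oligodendrocyte and spinal cord markers, Mog, Opalin, Aqp4 and Slc1a2 were also lowest there among the sham libraries. Cnp was not, at 253, 262 and 230 CPM in sham 1 to 3. All 6 markers together summed to 295, 275 and 260 CPM in sham 1 to 3. A link between these markers and Gpr62 was not tested. Gpr65, the acid-sensing receptor of leukocytes, had most of its sham counts in sham 3, with 23 of 34. Among the 33 tested members that averaged 5 CPM or more, the median coefficient of variation between mice was 9.6% in I/R and 6.23% in sham, and over the 16 below that level it was 19.8% in I/R and 29.8% in sham.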
